A study of Mus musculus with 16 samples.

Results

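The 37 genes described here encode the machinery that copies DNA in S phase, together with the enzymes that supply its nucleotides and repair its forks. They were taken by symbol from a list, and all 37 were found among the 24964 gene symbols of the count table and passed the filter on low counts that left 15385 genes. The list was drawn up with the WT-A against WT-S difference in view, and Blm was set apart because its level was low in WT-A. For the 37 genes, the values of that contrast are therefore a description, as are statements on which side of the threshold for all genes they lay, and no p-value is printed for them.

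The libraries came from the stomach of female mice aged 8 weeks, from a 4 mm biopsy of the corpus along the lesser curvature. WT mice were C57BL/6, and TTPΔARE mice were congenic on C57BL/6 and lacked the AU-rich element in the transcript of Zfp36, the gene of the RNA-binding protein tristetraprolin (TTP). A stands for adrenalectomy, surgery that takes out the adrenal glands and that the labels tie to gastric inflammation. Under S the treatment label gives the term spasmolytic polypeptide-expressing metaplasia, SPEM for short, a state of injured glands in which mucous cells appear; S serves below as a group name and nothing more. There were 4 libraries in each of the WT groups (WT-S, WT-A) and of the TTPΔARE groups (TTP-S, TTP-A). Since nothing in the labels says that they came from separate animals, p-values measure only the spread between these samples.

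Totals ranged from 17453930 to 25849472 counts per library. Zfp36 ranged from 55.1 to 88.6 CPM (counts scaled to library size) in the 8 WT libraries and from 110.5 to 131 CPM in the 8 TTPΔARE libraries, without overlap. Parietal cell markers (16120 to 24830 CPM summed) and chief cell markers (47230 to 149700 CPM summed) were present in every library. The parietal list holds Gif, the gene of intrinsic factor, which is a chief cell gene in mice. Mucous neck and SPEM markers had a lower median sum in S than in A, 3608 against 5667 CPM in WT and 3330 against 4508 CPM in TTPΔARE. WT-A 3 and WT-A 4 stood apart. Across 11493 genes, the rank correlation of GC content with a library's deviation from the median library was 0.716 and 0.738 in these, against -0.302 to 0.164 in the other 14, so values from the 14 libraries left without them are given for the genes whose direction, call or size they change. The 37 genes had a median transcript GC content of 49.2%, and all tested genes 50%. Single members ranged from 36.3% (Ccne2) to 57.8% (Cdt1), and the part of GC content in their differences was not tested.

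Replication starts when the origin recognition complex, Cdc6 and Cdt1 load the ring of Mcm2 to Mcm7 onto DNA, which is called licensing. Cdc45 and the GINS complex then turn the ring into a running helicase, polymerases and their clamp copy the strands, and ribonucleotide reductase and thymidylate synthase feed them. Most of these genes are switched on at the G1 to S boundary by E2F transcription factors. In the corpus, dividing cells lie mainly in the isthmus of each gland, while parietal and chief cells rarely divide.

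Promoter windows in RefSeq (GRCm38.p6), from 250 bases before to 50 bases after each start, were at hand for 31 of the 37 genes. An E2F core, searched on either strand as TTCGCGC or as TTGGCGC and likewise as TTCCCGC or as TTGCCGC, lay in the windows of 21 of these 31 genes, or 67.7%. It lay in 18.1% of 11917 tested genes with a window and in 10.9% of all 27025 genes with one. With a further T in front of each core, 11 of 31 held a match, against 4.25% of tested genes, and each such match contains a core match. A CCAAT box, searched as CCAAT on either strand, was found in 64.5% of the windows and in 42.2% of those of tested genes. The element TTTGAA, on either strand, was found in 9.68% and 14.4%. These matches describe letters only, and no binding was measured. The stretches below show upstream matches of genes described in the results, each as 30 bases read 5′ to 3′ on the gene's strand, with 1 E2F core, or its reverse complement, in capitals. The stretches of Mcm5, Mcm6 and Chaf1a hold a further core match, left in lower case or overlapping the capitals.
Mcm5, chr8:75109346-75109375, plus strand: cgccaagaactTTCGCGCcaaaacgtccag
Mcm6, chr1:128359793-128359822, minus strand: gtatgcttttgGCGCGAAaagtgcgtgcgg
Rrm1, chr7:102441617-102441646, plus strand: aggagaactcgTTCCCGCcaggtccgcttt
Chaf1a, chr17:56040358-56040387, plus strand: ggttgccgcggTTCCCGCcaaatacgagcg
Chaf1b, chr16:93883663-93883692, plus strand: tcctccgaggcGCGGGAAtgggattcccag
Uhrf1, chr17:56303278-56303307, plus strand: tgctttctcgcTTCCCGCcacagcgccagc
Blm, chr7:80535122-80535151, minus strand: aatcatccttcTTGCCGCgcagagcgtgcg
Blm and Chaf1b, which differed in opposite directions in WT-A, both held a core match.

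**Figure D1:**
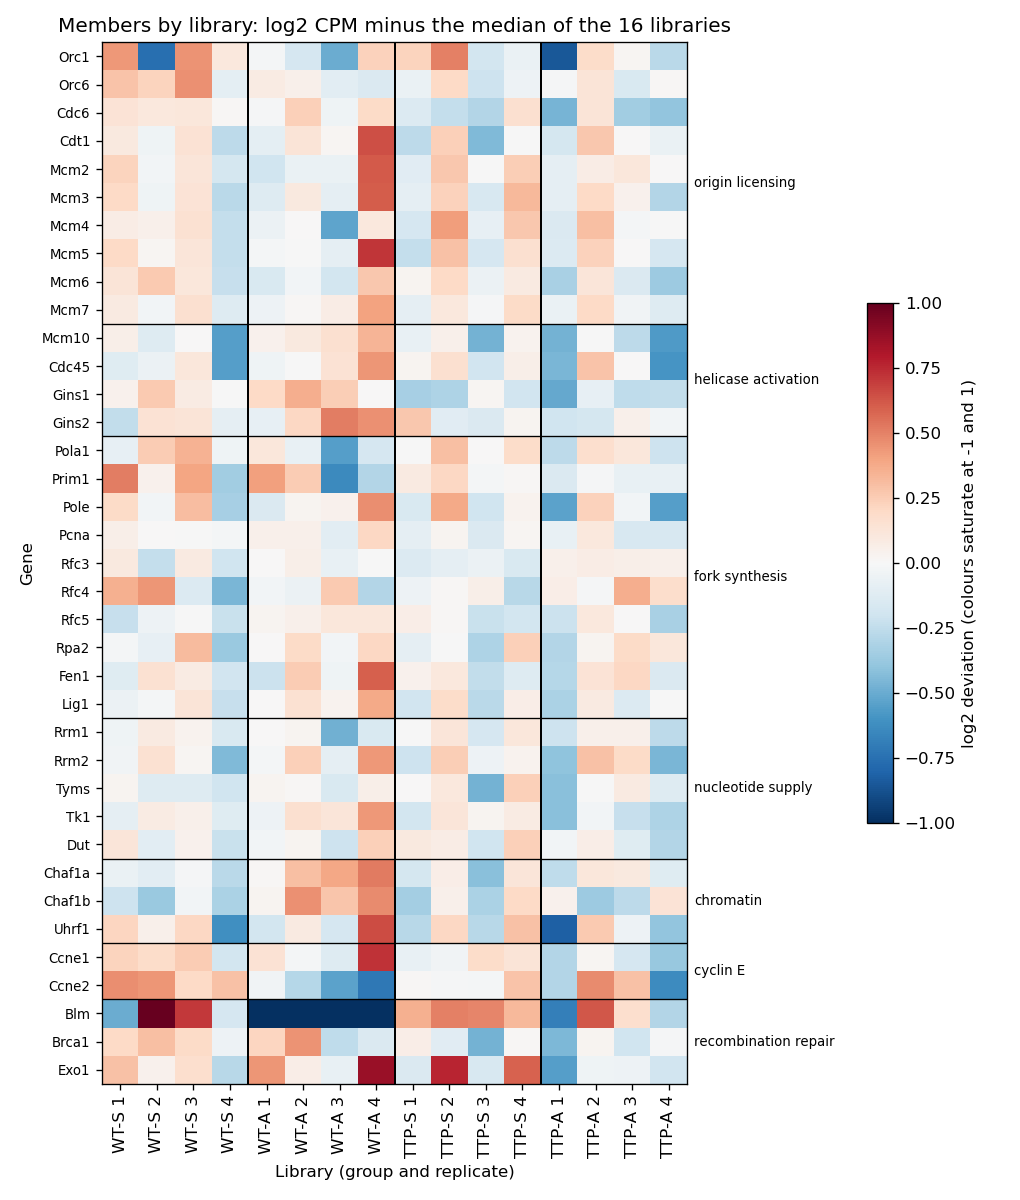
Heat map of the 37 genes (rows, grouped by role) in the 16 libraries (columns), as log2 CPM minus the gene's median over the 16 libraries; red is higher, blue is lower, and colours saturate at 1 log2 unit. The 4 WT-A libraries are dark blue in the row of Blm, and WT-A 4 is red in most rows of the licensing genes.

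Together the 37 took between 0.0341% and 0.0484% of the counts of a library, and the ranges of the 4 groups overlapped. The fitted log2 differences of WT-A against WT-S had a median of 0.092 over the 37 genes, with 26 higher and 11 lower, beside a median of 0.0094 over all tested genes. As a description of the contrast behind the list, 4 of the 37 (10.8%) were beyond the threshold of 0.05 on the adjusted p: Chaf1a and Chaf1b were higher and Ccne2 and Blm were lower. In the same contrast 18.8% of all tested genes were beyond it, 9.8% higher and 8.99% lower. The median was 0.038 from the 14 libraries and, with single libraries left out, 0.139 without WT-S 3, 0.018 without WT-S 4 and -0.015, on the other side of 0, without WT-A 4.

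The contrast of TTP-A against TTP-S shares no library with the one that drew up the list. None of the 37 genes passed there with edgeR's quasi-likelihood test and Benjamini-Hochberg adjustment over all genes; 1 had an unadjusted p under 0.05, and DESeq2 also called 0. The background was 2.9% of tested genes. The median log2 difference was -0.091, with 30 genes lower and 7 higher, beside a median of -0.001 over all tested genes, and all 37 intervals of 95% lay between -1.12 and 0.67. Leaving out single libraries moved the median to -0.157 without TTP-S 3, -0.153 without TTP-A 2, -0.139 without TTP-A 3, -0.045 without TTP-A 1 and -0.041 without TTP-S 4. Tk1 had the lowest adjusted p, 0.253.

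**Figure D2:**
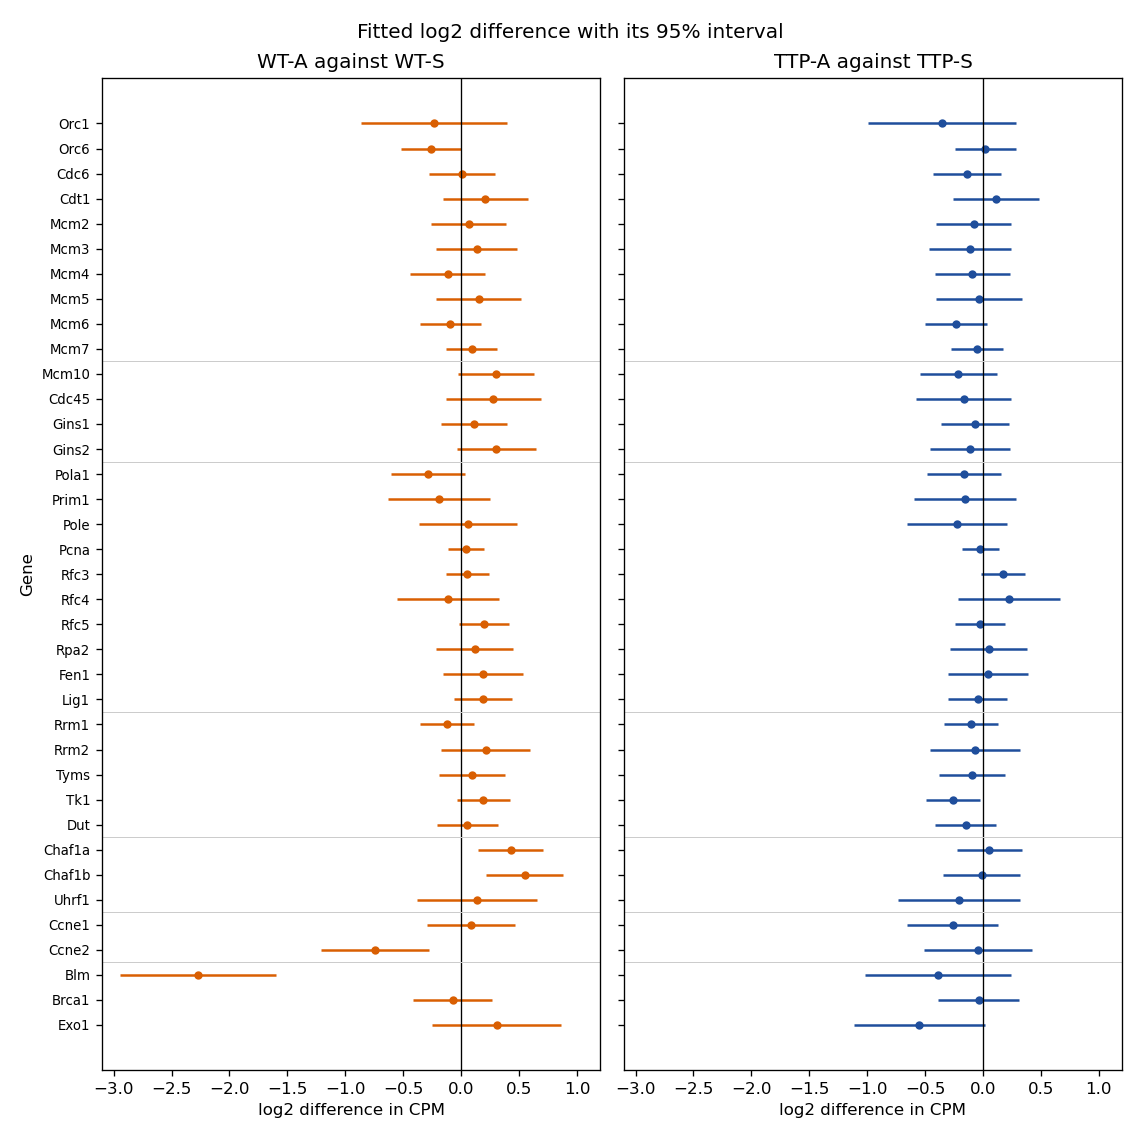
Fitted log2 difference in CPM (x axis) of each of the 37 genes (y axis, in order of role) with its 95% interval, for WT-A against WT-S on the left and TTP-A against TTP-S on the right. Blm at -2.27 lies apart on the left, and on the right the points lie between -0.55 and 0.22.

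Blm encodes a RecQ helicase that unwinds recombination intermediates and stalled forks. Its gene lies at chr7:80454733-80535119 on the minus strand (GRCm38). Blm stood at 19.3, 58.4, 44.5 and 24.3 CPM in WT-S 1 to 4. It stood at 9.28, 7.66, 6.91 and 6.57 CPM in WT-A 1 to 4. All 4 WT-A libraries were below every other library of the study. In TTP-S it stood at 34.8, 38.7, 38.2 and 34.0 CPM, and in TTP-A at 16.9, 41.8, 30.5 and 22.2 CPM. TTP-A 2 lay above all TTP-S libraries and the other 3 TTP-A libraries lay below them.

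The mean of Blm was 36.6 ± 18.2 CPM in WT-S, against 7.60 ± 1.21 CPM in WT-A (SD, n = 4 each), a fitted 4.82-fold lower level (log2 -2.27, SE 0.32, and -2.12 from the 14 libraries). Blm was singled out for this difference, so its size and rank only describe the choice: 4 of all 15385 tested genes had a lower log2 difference. In TTP-A the log2 difference from TTP-S was -0.39 (SE 0.30, interval -1.02 to 0.24, edgeR adjusted p 0.612). TTP-S and WT-S had nearly the same mean, 36.4 ± 2.38 CPM (SD, n = 4) in TTP-S, with a log2 difference of -0.012 (edgeR adjusted p 0.9995). The WT-S libraries spread more, with a coefficient of variation of 49.6% against 6.53% in TTP-S. TTP-A was above WT-A by 1.87 on the log2 scale (SE 0.32), which is given as a description because it uses the WT-A libraries on which Blm was singled out.

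The genotype by treatment interaction contains the contrast used for the list, so for the 37 genes only its count is given. None of the 37 genes passed with edgeR, 6 had an unadjusted p under 0.05, and 0.0585% of all tested genes passed. DESeq2 called 1, the gene singled out on the WT-A libraries, and nothing is read from it.

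The summed level of chief cell markers was low in several of the libraries in which Blm was low, although its genes did not all move together. Of the 4 tested, Pgc (-0.82) and Chia1 (-1.65) were called lower in WT-A against WT-S, Pga5 (0.76) was called higher, and Bhlha15 stood at -0.28; the median of the 4 was -0.55. Without WT-A 3 and WT-A 4 all 4 were called, Bhlha15 as lower, and the median was -0.91. The sum was 75490 CPM in WT-S 1, where Blm was lowest among the WT-S libraries, and 149700 CPM in WT-S 2, where Blm was highest. In WT-A it was 53100, 47230, 64750 and 100500 CPM in libraries 1 to 4, and WT-A 4 had the lowest Blm of all with chief markers above those of WT-S 1. TTP-S stood at 123900 to 131300 CPM and TTP-A at 91350 to 140200 CPM, with TTP-A 1 lowest in both measures. Parietal markers summed to 20330 to 24520 CPM in WT-S, and to 16630, 16120, 18650 and 24830 CPM in WT-A 1 to 4. WT-A 1 to 3 lay below every WT-S library. All 6 genes of the parietal list had a difference below 0, and 3 of the 6 were called lower (4 from the 14 libraries, Gif among them). Of all tested genes 18.8% were called in this contrast, 8.99% lower, and 10.4% were called from the 14 libraries. The part of cell make-up in the difference of Blm was not tested, and in bulk tissue fewer cells of a type and less RNA per cell cannot be told apart.

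Genes next to Blm differed less. Among the 3 neighbours on each side in WT-A against WT-S, the log2 differences were 0.011 for Man2a2, -0.44 for Fes, -0.76 for Furin, 0.15 for Crtc3, 0.16 for Iqgap1 and 0.11 for Zscan2. Fes and Furin, which lie on the side of the 3′ end of Blm, were the ones below 0. The annotation (GENCODE M21) places 1 further gene within Blm, the processed pseudogene Ndufab1-ps, which overlaps no exon of Blm and has no row in the table.

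The non-member genes whose log2 CPM followed Blm most closely over the 16 libraries, of 13857 searched, were Mpv17l, Aass, Ralgapa2, Opa1 and Aldh6a1, with Pearson r of 0.967, 0.955, 0.951, 0.95 and 0.948. The points share libraries and the low WT-A group. Aass, a mitochondrial enzyme of lysine breakdown, averaged 21.7 ± 3.19 CPM in WT-S, against 11.6 ± 0.602 CPM in WT-A (SD, n = 4 each), and 22.8 ± 2.15 CPM in TTP-S, against 18.5 ± 4.07 CPM in TTP-A. Aldh6a1, a mitochondrial enzyme of valine breakdown, had 461.5 ± 70.0, 286.6 ± 29.1, 478.2 ± 21.1 and 401.8 ± 38.3 CPM in the same order. Opa1, which fuses the inner membranes of mitochondria, ranged from 78.5 to 86.2 CPM in WT-A and from 93.0 to 113.6 CPM in the other 12 libraries. None of these 5 is a replication gene by its known role.

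The other 36 genes followed one another instead. After the group means were removed, the median r of a gene with the mean of the other 35 was 0.73 over the 16 libraries, and that of Blm with the mean of the 36 was 0.39. Without removing the group means, Blm and the mean of the 36 had r = -0.078. The non-members closest to the mean of the 36 were Clspn (r = 0.886), a checkpoint mediator at the fork, E2f8 (0.878), an E2F family repressor, Ran (0.827), a nuclear transport GTPase, Mms22l (0.81), a fork repair factor, and Fam122a (0.795). WT-A 4 had the highest median deviation of the 36, 0.31 above the median library on the log2 scale, and TTP-A 1 the lowest, at -0.27.

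**Figure D3:**
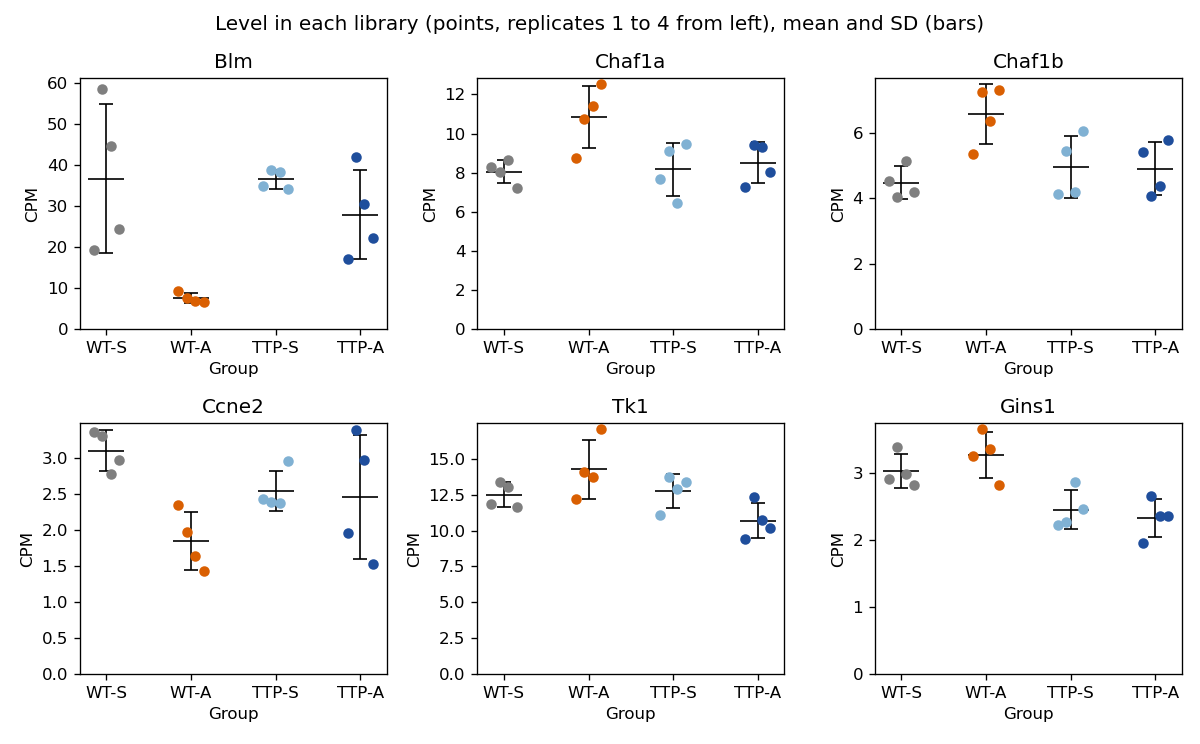
CPM (y axis, from 0) of Blm, Chaf1a, Chaf1b, Ccne2, Tk1 and Gins1 in each library of the 4 groups (points, replicates 1 to 4 from left), with the group mean and SD (bars). In WT-A, Blm and Ccne2 lie below WT-S and Chaf1a and Chaf1b above it; the TTP-A points of Tk1 and Gins1 lie mostly under those of WT-A.

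None of the 10 licensing genes passed within either genotype. Mcm6, a subunit of the helicase ring and the licensing gene with the most counts, stood at 32.5, 35.5, 32.1 and 25.3 CPM in WT-S and at 26.8, 29.1, 26.1 and 35.9 CPM in WT-A. It stood at 30.3, 34.1, 28.5 and 31.6 CPM in TTP-S and at 23.8, 32.3, 26.9 and 23.1 CPM in TTP-A. All 4 groups overlapped. For the 6 ring genes Mcm2 to Mcm7, the log2 differences lay between -0.12 and 0.15 in WT-A against WT-S and between -0.23 and -0.035 in TTP-A against TTP-S, where all 6 were below 0. Without WT-A 3 and WT-A 4 all 6 were below 0 in WT-A against WT-S as well, from -0.17 for Mcm2 and Mcm6 to -0.029 for Mcm3, and Mcm2, Mcm3, Mcm5 and Mcm7 had changed sign. With all libraries, none of the 6 passed in either, and in TTPΔARE their intervals reached at most from -0.50 to 0.34. WT-A 4 was the highest library for Mcm2 (35.9 CPM) and Mcm5 (26.1 CPM), with the other 3 WT-A libraries at 20.4 to 22.4 CPM and 14.9 to 15.8 CPM.

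Orc6, a subunit of the origin recognition complex, had the largest difference of the licensing genes in WT-A against WT-S, -0.26; from the 14 libraries it stood at -0.17 and Orc1 at -0.23. It stood at 7.11, 6.83, 8.01 and 5.43 CPM in WT-S, at 6.17, 6.04, 5.42 and 5.26 CPM in WT-A, at 5.55, 6.71, 5.04 and 5.61 CPM in TTP-S and at 5.77, 6.38, 5.23 and 5.88 CPM in TTP-A. WT-S reached higher than the others, with overlap. Cdt1, the loader of the ring, was at 0.21 in WT (0.025 from the 14 libraries) and 0.11 in TTPΔARE on the log2 scale, Cdc6, its partner, at 0.0064 and -0.14, and Orc1, the largest subunit of the origin complex, at -0.23 and -0.36. Orc1 had as few as 13 counts in a library.

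The 4 helicase activation genes, Mcm10, Cdc45, Gins1 and Gins2, differed by 0.11 to 0.30 in WT-A against WT-S and by -0.21 to -0.072 in TTP-A against TTP-S, and none passed in either. In the 14 libraries, Mcm10 was at 0.21, Gins1 at 0.19, Cdc45 at 0.11 and Gins2 at 0.076 in WT-A against WT-S. Mcm10, which helps to fire the licensed ring, stood at 7.45, 6.53, 7.17 and 4.86 CPM in WT-S and at 7.36, 7.66, 8.00 and 9.09 CPM in WT-A. It stood at 6.81, 7.41, 5.14 and 7.33 CPM in TTP-S and at 5.13, 7.15, 5.96 and 4.82 CPM in TTP-A. Every TTP-A library was below every WT-A library for Mcm10, as for 12.2% of tested genes without overlap in either direction and 8.11% of the 37, with a log2 difference of -0.48 (SE 0.15, edgeR adjusted p 0.0747); DESeq2 gave an adjusted p of 0.0367, edgeR without WT-A 1 gave 0.0411, and the 14 libraries gave -0.38 with an edgeR adjusted p of 0.274. Gins2, a GINS subunit, stood at 2.02, 2.67, 2.64 and 2.25 CPM in WT-S, at 2.27, 2.79, 3.47 and 3.35 CPM in WT-A, at 2.92, 2.22, 2.17 and 2.46 CPM in TTP-S and at 2.09, 2.13, 2.497 and 2.36 CPM in TTP-A. WT-A 3 and WT-A 4 were its highest libraries.

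Gins1, another GINS subunit, fell below its WT-A level in TTP-A. It stood at 3.25, 3.66, 3.36 and 2.83 CPM in WT-A and at 1.95, 2.66, 2.35 and 2.36 CPM in TTP-A, without overlap. The log2 difference was -0.49 (SE 0.14, edgeR adjusted p 0.048, which is not independent of the choice of the list). In WT-S it stood at 2.91, 3.39, 2.99 and 2.82 CPM and in TTP-S at 2.23, 2.27, 2.87 and 2.46 CPM, overlapping in 1 TTP-S library, with a log2 difference of -0.31 (SE 0.14, edgeR adjusted p 0.628). The call in TTP-A against WT-A was lost in 10 of 15 alternatives (log2 -0.57 to -0.41, highest adjusted p 0.169), 6 of them without a single library: WT-A 2, WT-A 3 or any 1 of the TTP-A libraries.

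Tk1, the thymidine kinase that salvages thymidine, likewise fell below its WT-A level in TTP-A. It stood at 12.2, 14.1, 13.7 and 17.1 CPM in WT-A and at 9.45, 12.4, 10.8 and 10.2 CPM in TTP-A. The groups overlapped only in that TTP-A 2 was above WT-A 1. The log2 difference was -0.42 (SE 0.11, edgeR adjusted p 0.0403, likewise not independent of the choice of the list). The call was lost in 7 of 15 alternatives (log2 -0.50 to -0.30), among them without WT-A 3, WT-A 4, TTP-A 1, TTP-A 3 or TTP-A 4, with a highest adjusted p of 0.162 in the 14 libraries. WT-S stood at 11.9, 13.4, 13.1 and 11.6 CPM and TTP-S at 11.1, 13.7, 12.9 and 13.4 CPM, which overlapped. Against TTP-S, TTP-A was at -0.26 (SE 0.11, edgeR adjusted p 0.253).

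Gins1, Tk1 and Blm were the 3 of 37 genes (8.11%) that passed in TTP-A against WT-A, where 5.17% of tested genes passed, 2.87% higher and 2.3% lower. This contrast shares the WT-A libraries with the one behind the list, so the place of Blm among the 3 is a description only. The p-values of the other members in it are not independent of the choice of the list. The median log2 difference of the 37 was -0.18, with 29 lower; it was -0.065 without WT-A 4 and -0.108 without TTP-A 4. From the 14 libraries it was -0.11 and none passed, although 6 had an unadjusted p under 0.05. DESeq2 on 16 libraries called 4. Cell markers moved in TTP-A against WT-A too. Smooth muscle markers summed to 6288 to 7525 CPM in TTP-A, against 7822 to 9476 CPM in WT-A, and 4 of 6 were called lower (0 from the 14 libraries). Of 4 chief markers 2 were called higher, and of 10 mucous neck and SPEM markers 2 lower (1 from the 14 libraries). All 12 squamous markers were below 0 and none was called. The part of these cells was not tested. In TTP-S against WT-S, which shares the WT-S libraries, none of the 37 passed with edgeR, 1 had an unadjusted p under 0.05 and DESeq2 called 0, where 0.0325% of tested genes passed. The median was -0.0032, with 18 higher and 19 lower, and its sign turned with the library left out, from -0.061 without WT-S 4 to 0.073 without WT-S 3.

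Fork genes showed small differences. Pcna, the sliding clamp, was the member with the highest level, 23.3 CPM per kilobase of transcript. It stood at 37.1, 35.9, 35.5 and 35.2 CPM in WT-S, at 36.9, 36.9, 33.1 and 41.3 CPM in WT-A, at 33.6, 36.4, 32.4 and 36.2 CPM in TTP-S and at 34.0, 38.5, 31.9 and 32.0 CPM in TTP-A. All 4 groups overlapped, and the log2 difference was 0.044 in WT-A against WT-S and -0.022 in TTP-A against TTP-S (SE 0.074, edgeR adjusted p 0.946). Pola1, the catalytic subunit of the priming polymerase, had the largest difference of the fork genes in WT-A against WT-S, -0.29, but stood at -0.12 from the 14 libraries, where Rfc5 was at 0.16. It stood at 6.27, 7.97, 8.49 and 6.45 CPM in WT-S, at 7.22, 6.31, 4.53 and 5.91 CPM in WT-A, at 6.64, 8.24, 6.67 and 7.57 CPM in TTP-S and at 5.54, 7.49, 7.20 and 5.74 CPM in TTP-A. WT-A 3 was the lowest library of Pola1.

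Among the remaining fork genes, Rfc5, a clamp loader subunit, was higher in every WT-A library than in any WT-S library, at 9.93 to 10.6 CPM against 8.29 to 9.73 CPM, with a log2 difference of 0.20. Rfc3, another loader subunit, was the only member whose TTP-A and TTP-S libraries did not overlap, at 7.04 to 7.15 CPM against 6.10 to 6.52 CPM (log2 difference 0.17, SE 0.089, edgeR adjusted p 0.388). Of the 37 genes 2.7% did not overlap in that contrast, and of all tested genes 13.7%. The loader subunit Rfc4, the primase subunit Prim1, the leading-strand polymerase Pole, the single-strand binding protein Rpa2, the flap nuclease Fen1 and the ligase Lig1 lay between -0.19 and 0.19 in WT-A against WT-S and between -0.22 and 0.22 in TTP-A against TTP-S, and none passed. Leaving out WT-A 3 and WT-A 4, Prim1 moved from -0.19 to 0.15 and Pole from 0.058 to -0.11 in WT-A against WT-S, to the other side of 0, Fen1 from 0.19 to 0.047 and Lig1 from 0.19 to 0.12.

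The nucleotide supply genes likewise gave no call within a genotype. Rrm1, the large subunit of ribonucleotide reductase, stood at 33.7, 36.9, 35.7 and 31.2 CPM in WT-S, at 34.9, 35.5, 24.97 and 31.2 CPM in WT-A, at 34.6, 37.8, 31.0 and 37.6 CPM in TTP-S and at 30.2, 35.95, 36.06 and 28.9 CPM in TTP-A. WT-A 3 was the lowest library, and all groups overlapped. Rrm2, the small subunit made in S phase, stood at 8.79, 10.1, 9.16 and 6.60 CPM in WT-S, at 8.88, 10.7, 8.47 and 12.2 CPM in WT-A, at 7.78, 10.7, 8.70 and 9.25 CPM in TTP-S and at 6.81, 11.1, 10.3 and 6.53 CPM in TTP-A. Its log2 difference was 0.21 in WT-A against WT-S and -0.070 in TTP-A against TTP-S. Tyms, thymidylate synthase, and Dut, which clears dUTP, were at 0.095 and 0.054 in WT and at -0.096 and -0.15 in TTPΔARE. In the 14 libraries, Rrm1 moved from -0.12 to 0.032 and Tk1 from 0.19 to 0.073 in WT-A against WT-S.

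Both large subunits of chromatin assembly factor 1, which places histones on new DNA, were higher in WT-A. Chaf1b stood at 4.53, 4.03, 5.15 and 4.20 CPM in WT-S and at 5.34, 7.24, 6.36 and 7.30 CPM in WT-A. Chaf1a stood at 8.29, 8.06, 8.63 and 7.22 CPM in WT-S and at 8.77, 10.7, 11.4 and 12.5 CPM in WT-A. Neither overlapped between these groups, with log2 differences of 0.55 (SE 0.16) for Chaf1b and 0.43 (SE 0.13) for Chaf1a; 13.5% of the 37 genes and 17.7% of all tested genes did not overlap. From the 14 libraries the differences were 0.49 and 0.28 and neither passed. Neither passed without WT-S 2, WT-S 4, WT-A 3 or WT-A 4 alone, nor Chaf1a without WT-S 3, at 0.49 to 0.64 for Chaf1b and 0.28 to 0.52 for Chaf1a over the alternatives.

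In TTPΔARE mice neither subunit passed. Chaf1b stood at 4.13, 5.44, 4.20 and 6.05 CPM in TTP-S and at 5.41, 4.06, 4.37 and 5.79 CPM in TTP-A (log2 difference -0.012, interval -0.34 to 0.32, edgeR adjusted p 0.988). Chaf1a stood at 7.70, 9.10, 6.47 and 9.44 CPM in TTP-S and at 7.27, 9.42, 9.32 and 8.01 CPM in TTP-A (0.055, interval -0.23 to 0.34, edgeR adjusted p 0.917). Uhrf1, which guides DNA methylation to new strands, stood at 15.1, 13.4, 14.96 and 8.45 CPM in WT-S, at 11.4, 13.8, 11.6 and 20.4 CPM in WT-A, at 10.7, 14.95, 10.7 and 15.9 CPM in TTP-S and at 7.31, 15.6, 12.5 and 9.82 CPM in TTP-A. It varied within every group, and its log2 difference in WT-A against WT-S was 0.14, or -0.044 from the 14 libraries.

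Of the genes of cyclin E, which drives entry into S phase, Ccne2 was lower in WT-A. Ccne2 had the lowest transcript GC content of the 37, 36.3%. It stood at 3.36, 3.31, 2.77 and 2.97 CPM in WT-S and at 2.35, 1.97, 1.64 and 1.44 CPM in WT-A, without overlap, a log2 difference of -0.74 (SE 0.22). From the 14 libraries it was -0.52 and did not pass, nor did it without WT-S 1, WT-S 2, WT-S 4, WT-A 3 or WT-A 4 alone (-0.88 to -0.52 over the alternatives). In TTP-S it stood at 2.43, 2.39, 2.37 and 2.95 CPM and in TTP-A at 1.95, 3.38, 2.98 and 1.53 CPM (-0.044, interval -0.51 to 0.42, edgeR adjusted p 0.965). Ccne1 stood at 3.36, 3.27, 3.43 and 2.51 CPM in WT-S, at 3.18, 2.83, 2.61 and 4.78 CPM in WT-A, at 2.71, 2.80, 3.26 and 3.15 CPM in TTP-S and at 2.32, 2.90, 2.55 and 2.18 CPM in TTP-A, with WT-A 4 the highest of all. Its log2 difference in WT-A against WT-S was 0.087, or -0.067 from the 14 libraries.

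Blm aside, 2 repair genes were on the list. Brca1, a homologous recombination factor, was at -0.072 in WT-A against WT-S (0.17 from the 14 libraries) and -0.036 in TTP-A against TTP-S. Exo1, a nuclease that resects ends, was at 0.31 (0.20 from the 14 libraries) and -0.55 (SE 0.27, edgeR adjusted p 0.34 in TTPΔARE), and was the member with the lowest level, 0.208 CPM per kilobase. Blm ranked 7 of the 37 per kilobase, at 5.69 CPM.

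Further genes of these pathways were read from lists that hold none of the 37. The lists were chosen with earlier results of these data known, so their counts in WT-A against WT-S are a description. Of 42 other replication genes, 3 were higher and 2 lower in WT-A against WT-S (11.9%, beside 18.8% of tested genes), the largest being Orc3 at -0.49, Asf1a at -0.45 and Pold1 at 0.37; from the 14 libraries Pold3, a polymerase subunit (0.26 from 16), alone passed. Of 12 other nucleotide genes none was higher and 2 were lower, Rrm2b, the reductase subunit of resting cells, at -0.85 and Dck at -0.40; from the 14 libraries Rrm2b was lower (-0.44), Dck was no longer called (-0.24) and Samhd1, which breaks down nucleotides, was higher (0.23 and not called from 16). Of 23 regulators of the G1 to S step 2 were higher and 2 lower, with Mycn at 0.91, Tfdp2 at -0.36 and Rbl2 at -0.24 the largest; from the 14 libraries none was higher and Tfdp2 and Ccnd2 were lower. Of 6 tested inhibitors of cyclin-dependent kinases Cdkn2b alone was higher (0.54), and of 30 other recombination genes Eme1 was higher (0.72) and Mre11a lower (-0.21). Cdkn1a, another inhibitor, passed as higher by DESeq2 and without WT-S 4, WT-A 1 or WT-A 4. The G1 kinase Cdk6 passed as lower by DESeq2, with its size factors, with the replicate number as a block and without WT-S 1 or WT-A 2. The replication gene Rnaseh2a passed as higher without WT-A 1 or WT-A 2. From the 14 libraries none of these passed. Of the genes named here from the lists, Cdkn2b and Tfdp2 passed in all 15 alternatives and Rrm2b in all but 1. Orc3, Asf1a, Pold1, Dck, Mycn, Rbl2, Eme1 and Mre11a were each lost in 4 to 10 of the 15, and each without WT-S 2 alone and without WT-A 3 alone, and from the 14 libraries Orc3 stood at -0.12, Asf1a at -0.29, Pold1 at 0.215, Rbl2 at -0.13 and Mre11a at -0.12.

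Mitosis genes were higher in WT-A, which is a description, since the list was chosen with earlier results of these data known. All 15 were above 0 and 10 passed, all higher (66.7%, beside 9.8% of tested genes called higher), with a median of 0.52; from the 14 libraries 9 passed and the median was 0.51. Birc5, a chromosome passenger subunit, went from 7.94 ± 1.67 to 14.03 ± 0.766 CPM (SD, n = 4 each), a log2 difference of 0.81. Cdc20, an activator of the anaphase-promoting complex, was at 0.81 (0.51 from the 14 libraries) and Ccnb1, cyclin B1, at 0.78. In TTP-A against TTP-S none of the 15 passed with edgeR, beside 2.9% of tested genes, and 1 had an unadjusted p under 0.05. DESeq2 called 1 (Plk1, a mitotic kinase, higher), beside 5.61% of tested genes, and Plk1 also passed from the 14 libraries. The median was 0.066.

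**Figure D4:**
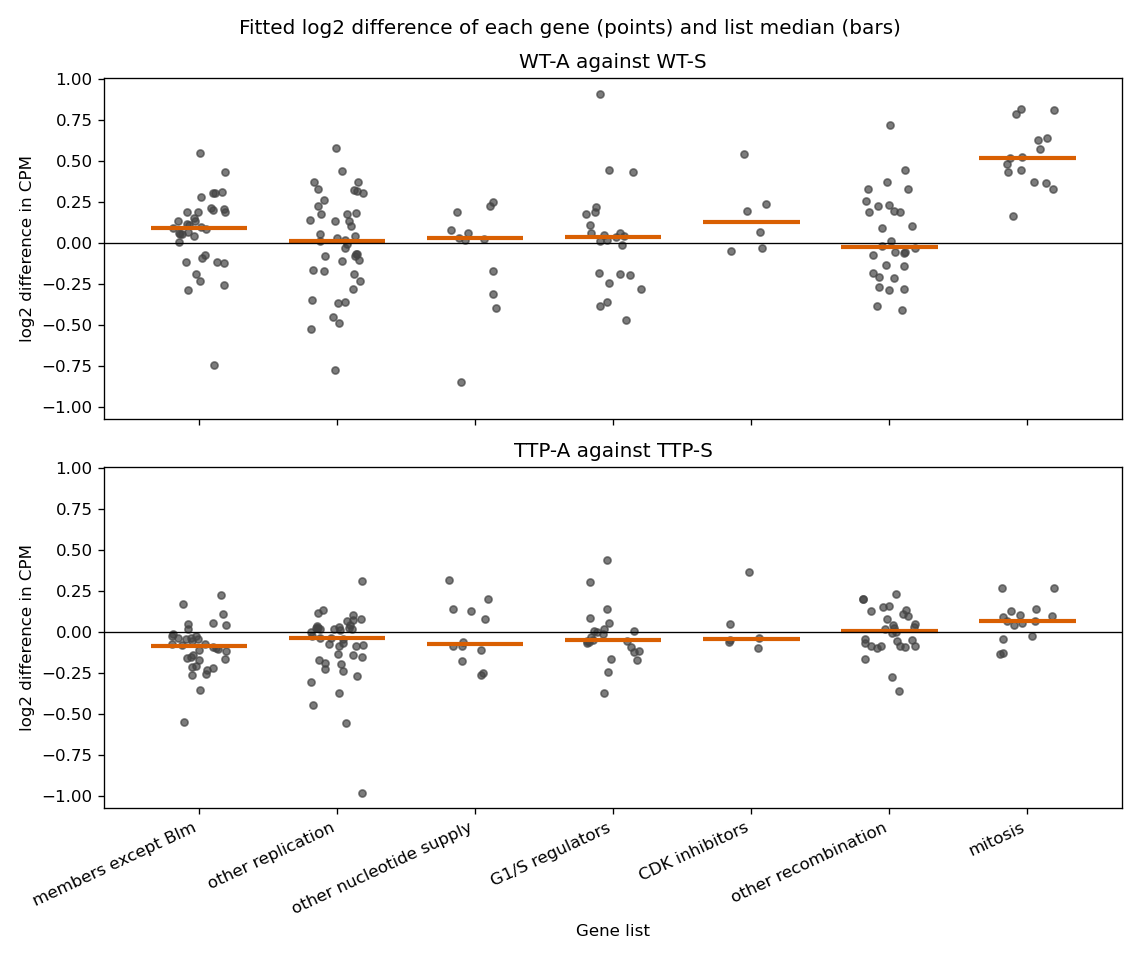
Fitted log2 difference in CPM (y axis) of each gene (points) with the list median (bars), for the 36 genes without Blm and for 6 further lists, in WT-A against WT-S (top) and TTP-A against TTP-S (bottom). The mitosis list has a median of 0.52 at the top, while the 36 genes have 0.093; Prim2 is the low point at -0.98 at the bottom.

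The squamous marker list of the neighbouring forestomach was at 57.2 to 1160 CPM summed in WT-A, against 4.20 to 269.9 CPM in WT-S, with all 12 markers above 0 in difference and 9 of the 12 at 0 in some library. Mucous neck and SPEM markers summed to 5343 to 6179 CPM in WT-A, against 2836 to 5477 CPM in WT-S, smooth muscle markers to 7822 to 9476 and 6576 to 7513 CPM, and macrophage markers to 167.9 to 260.1 and 152.3 to 190.9 CPM. Surface mucous markers summed to 41110 to 59180 CPM in WT-A, against 59940 to 68600 CPM in WT-S. Of 6 neutrophil markers only 1 was tested, Csf3r, at 1.91 to 3.26 CPM in WT-A, against 0.836 to 1.65 CPM in WT-S. Of 7 pancreas markers only 1 was tested, Cela1, at 22.56 to 27.3 and 18.8 to 22.53 CPM. The other markers of both lists were at 0 in some libraries. The WT-A libraries lay wholly above WT-S in the smooth muscle sum, in Csf3r and in Cela1, and wholly below in the surface mucous sum. Of all tested genes 17.7% did not overlap in this contrast. The part of these cells in the differences of the 37 genes, or of the mitosis list, was not tested.

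Prim2, the large subunit of primase and the partner of Prim1, fell in TTP-A. Its gene lies at chr1:33453810-33669795 on the minus strand (GRCm38). It stood at 14.4, 13.8, 15.3 and 14.2 CPM in TTP-S and at 6.90, 8.60, 5.91 and 7.78 CPM in TTP-A. WT-S stood at 9.07, 12.4, 11.2 and 11.7 CPM and WT-A at 9.13, 9.69, 12.9 and 10.8 CPM. Every TTP-S library was above, and every TTP-A library below, all 8 WT libraries. The log2 difference of TTP-A from TTP-S was -0.98 (SE 0.13, edgeR adjusted p 0.00123, lower in 4 of 4 libraries), and it passed in all 15 alternatives, with a highest adjusted p of 0.00866. WT-A differed from WT-S by -0.066 (SE 0.13; -0.24 from the 14 libraries). For Prim2, which is not among the 37, the interaction was -0.91 (SE 0.18, edgeR adjusted p 0.0808); DESeq2 called it (adjusted p 0.00151), as did edgeR without WT-A 1 (0.0338) or without TTP-A 2 (0.0396). Prim1 was at -0.16 in TTP-A against TTP-S (SE 0.21, edgeR adjusted p 0.823).

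Cell marker sums also moved between TTP-A and TTP-S. Surface mucous markers summed to 34260 to 60370 CPM in TTP-A, against 63200 to 68350 CPM in TTP-S, and mucous neck and SPEM markers to 3804 to 6940 and 3046 to 3634 CPM. T cell markers (4 of 8 tested) summed to 6.85 to 8.22 and 4.28 to 6.52 CPM, and endothelial markers to 246.4 to 265.3 and 209.9 to 234.8 CPM. B and plasma cell markers (2 of 7 tested) summed to 0.576 to 1.86 and 0.365 to 0.544 CPM. Of 7 pancreas markers only Cela1 was tested, at 15.1 to 19.3 and 20.6 to 26.8 CPM. None of these overlapped between the groups, and 13.7% of all tested genes did not overlap in this contrast. The part of these cells in the differences of Prim2 and of the genes below was not tested.

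Besides Prim2, Cdk6, a G1 kinase, also passed in TTP-A against TTP-S with all 16 libraries, from 25.03 ± 1.49 to 19.4 ± 0.733 CPM (SD, n = 4 each; log2 difference -0.37, edgeR adjusted p 0.0498), and the call was lost in 8 of 15 alternatives (log2 -0.41 to -0.34), among them without any single library but TTP-A 2. Cdkn2b, a kinase inhibitor, missed the threshold (0.37, edgeR adjusted p 0.0628) but passed in 5 of 15 alternatives, with adjusted p of 0.0257 from the 14 libraries, 0.0221 by DESeq2 and 0.0118 without TTP-A 2, and up to 0.249 in the others. Cad and Xrcc3 passed too, both higher, from the 14 libraries. No gene of the pathway lists passed in TTP-S against WT-S. In TTP-A against WT-A the replication genes Prim2 (-0.54), Rnaseh2a (-0.32), Pola2 (-0.31) and Gins4 (-0.24), the kinase inhibitor Cdkn1a (-0.36) and the mitotic kinase Aurka (-0.46) were lower, with edgeR adjusted p of 0.0279 to 0.0474. These were 4 of 42 other replication genes, 1 of 6 kinase inhibitors and 1 of 15 mitosis genes, beside 2.3% of tested genes called lower. All 15 mitosis genes were below 0, with a median of -0.29, and DESeq2 called 4 of them lower. From the 14 libraries none of the 15 passed. Tfdp2, a dimer partner of E2F proteins, was higher, at 137.1 ± 8.26 against 103.0 ± 7.70 CPM (SD, n = 4 each; 0.41, edgeR adjusted p 0.00353). From the 14 libraries Tfdp2 and Cdkn1a passed, the 4 replication genes and Aurka did not, and Ccnd2, a G1 cyclin, passed as higher (0.30 and edgeR adjusted p 0.0708 from 16 libraries). The 6 lower genes were also each lost without WT-A 3, TTP-A 1, TTP-A 3 or TTP-A 4 alone, at -0.63 to -0.37 for Prim2 and -0.42 to -0.30 for Cdkn1a over the 15 alternatives.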

How the data were processed

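The authors deposited 1 table of raw counts of reads per gene symbol, whole numbers with no normalization. Per the submitters' processing notes, STAR 2.7.0f, Subread 1.6.4, featureCounts, DESeq2 and the mouse build mm10 (GRCm38) were used; annotation and strand setting are not given in the sources used here. Groups and replicate numbers came from the sample titles. Counts were analysed in R 4.3.3 with edgeR 4.0.16 (filterByExpr, TMM scaling, quasi-likelihood test over 16 libraries, Benjamini-Hochberg adjustment over 15385 genes, threshold 0.05). CPM uses TMM-scaled totals. DESeq2 1.42.0 served as an alternative, with other filters, size factors, only the groups compared, a replicate block, WT-A 3 and WT-A 4 left out, and each library left out in turn. The pipeline was tested on simulated data. The members and gene lists were chosen with earlier results of these data known. Values in every library are given for Blm, for members called outside WT-A against WT-S, and per role for the member with the highest mean CPM and that with the largest log2 difference in WT-A against WT-S. Of the pathway lists, genes called in other contrasts and up to 3 of the largest called in that contrast are named. Chaf1a, Rfc5, Rfc3, Mcm2 and Mcm5 were given in more detail after their values were seen. Within groups, chi-square over degrees of freedom was 4.69 to 89.5 for the 24 library pairs, above sampling noise, and every library counted as 1 sample. Positions and GC content are from GENCODE M21 on GRCm38, and promoters from RefSeq.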

Additional observations from a re-analysis of the deposited data

Results flagged for a closer look

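Over 148 sets of 4 libraries (each of the 37 genes in each group), 3 held a library far from its group by Dixon's criterion, where chance gives about 1 in 20 sets. Mcm2 in WT-A 4 was at 35.9 CPM, with the other WT-A libraries at 20.4 to 22.4 CPM. Mcm5 in WT-A 4 was at 26.1 CPM, with the others at 14.9 to 15.8 CPM. Ccne2 in TTP-S 4 was at 2.95 CPM, with the others at 2.37 to 2.43 CPM.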

How the results depend on the processing

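No value that passed, among the 37 genes or the named list genes, reversed under any alternative run. In WT-A against WT-S, 4 of the 37 passed; fitting only the groups compared gave 1, leaving out WT-A 3 and WT-A 4 gave 1, and leaving out a single library gave 1 to 4, with 1 without WT-S 2, WT-S 4, WT-A 3 or WT-A 4. In TTP-A against WT-A, 3 passed; the groups alone gave 0, the 14 libraries 0, and single libraries left out 1 to 7, with 7 without WT-A 1 and 1 without WT-A 3, TTP-A 1, TTP-A 3 or TTP-A 4. For the interaction DESeq2 gave 1 instead of 0, and single libraries left out gave 0 to 1, with 1 without WT-S 1 or WT-A 1. In TTP-A against TTP-S and TTP-S against WT-S the count was 0 in every alternative. The causes were not tested. Over all tested genes, the groups alone gave 675, 1195, 60 and 1 calls in the 4 pairwise contrasts, against 2891, 446, 5 and 796. The 14 libraries gave 1620, 977, 57, 292 and, for the interaction, 46 instead of 9, and DESeq2 gave 863, 100, 1636 and 262 in all but the first contrast. Single libraries left out gave 1254 to 4977, 60 to 937, 1 to 15, 86 to 3202 and 2 to 211. Scaling by DESeq2's size factors left the median of all genes within 0.01 of 0 in each contrast.

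With the replicate number as a block, 4, 0, 0, 2 and 0 of the 37 passed in the 5 contrasts, Gins1 being lost in TTP-A against WT-A, and the interaction gave 4 calls over all genes instead of 9. The numbers did not pair the libraries: deviations of libraries with the same number correlated at -0.43 to 0.444, over 0.1 in 5 of 24 pairs. Orc1 had 13 to 40 counts in a library and an SE of 0.30 in WT-A against WT-S. Blm, with 151 to 1377 counts, had an SE of 0.32.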
